A study of Mus musculus with 56 samples.

Results

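SMART replicas of OV RNA, from a mouse line of ovary epithelial cells, were compared on 8 of the 56 arrays of the series, with 10 pg, 100 pg, 1 ng or 10 ng of total RNA in each amplification. The members were found by their titles, which name a SMART replicate hybridization with 10 pg, 100 pg, 1 ng or no amount, and the arrays with no amount were taken as 10 ng from their descriptions. At each amount RNA of the same cells was amplified in 2 parallel reactions, replica 1 and replica 2, and both products were hybridized together on 2 arrays with the dyes swapped. Array 1 of each pair has replica 1 in Cy3 and array 2 has it in Cy5. All 8 arrays hold RNA of 1 cell line with no treatment, so differences between cells do not enter the ratios, and those between reactions, labels and slides do. Both 1 ng arrays are described in the labels as 100 pg, and array 2 of the 10 ng pair as 10 ug. The amounts used here follow the titles and, for 10 ng, the design text. At 10 ng only a part of the cDNA entered the first PCR cycles, whereas at the lower amounts all of it did, and the dilution before the later cycles also differed, so that amount and dilution cannot be told apart.

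SMART uses the property of reverse transcriptase to add a few cytosines once it reaches the 5′ end of an RNA. A primer pairs with them, the enzyme switches to it as a template, and every cDNA then carries a known sequence at both ends, from which PCR can amplify the whole population. Rare transcripts are present as few copies in the reaction when little RNA is used, and a copy that is missed by reverse transcription or by the first cycles cannot be recovered later. Ovarian surface epithelium is the mesothelium-like layer that covers the ovary, and it expresses the transcription factor Wt1, mesothelin (Msln) and simple epithelial keratins.

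Each value is a log2 ratio between the dyes as deposited. It was taken as Cy5 over Cy3, and its sign was set so that it gives replica 1 over replica 2. This reading is the likely one, since the study gives both directions. With the other reading every sign below would turn and no size would change. A probe was counted as measured at an amount if both arrays have a value, and why other probes have none is not stated. Both arrays of a pair hold the same 2 amplified products, so each amount gives 1 comparison of 2 reactions, and p-values from both arrays of a pair measure the spread of labeling and hybridization alone. No intensities were used here, so signal over background and the level of a gene cannot be given.

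OV markers had values along the whole series, which does not show a signal over background. The array holds 11 markers of the ovarian surface and of mesothelium, of which 7 were measured at 10 pg, 9 at 100 pg, 10 at 1 ng and 9 at 10 ng, beside 38.5%, 56.6%, 75.6% and 51.1% of all genes. All 11 had a value on at least 4 of the 6 arrays of unamplified cDNA, 4 of which also hold RNA of 3T3 fibroblasts. Wt1, Msln, Krt7, Krt8, Krt19, the zinc finger gene Bnc1 and Aldh1a2, which makes retinoic acid, were measured at every amount. Markers of cells that the line should lack were measured as well, in shares that differed by cell type. Of 7 markers of granulosa cells and oocytes, 4 were measured at 10 pg, 3 at 100 pg, 7 at 1 ng and 4 at 10 ng. In the same order the counts were 3, 2, 4 and 3 of 5 neuron markers and 1, 1, 3 and 1 of 4 leukocyte markers. They were 1, 2, 4 and 2 of 5 endothelial markers and 1, 1, 2 and 1 of 2 erythroid markers. Of 10 fibroblast markers, 5 were measured at 10 pg, 6 at 100 pg, 10 at 1 ng and 7 at 10 ng. At least 4 arrays of unamplified cDNA also had values for 7 of 7 granulosa and oocyte markers, 3 of 5 neuron markers and 8 of 10 fibroblast markers. The same held for 2 of 4 leukocyte, 4 of 5 endothelial and 2 of 2 erythroid markers. Values there thus do not set OV markers apart. The oocyte genes Gdf9 and Zp3 and the granulosa gene Amh had values at all 4 amounts. Values were thus also given for genes that these cells should lack, and the part of other cell types in any result was not tested.

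The number of probes measured followed no order of input. Of 21766 probes, 7280 were measured at 10 pg (33.4%), 11000 at 100 pg (50.5%), 16036 at 1 ng (73.7%) and 9443 at 10 ng (43.4%). The 1 ng pair held the most, with 16570 probes on array 1 and 20195 on array 2. At 10 pg the arrays held 10810 and 10729 probes but shared only 67.3% of those on array 1 and 67.9% of those on array 2. At 100 pg every probe with a value on array 2 (11000) also had one on array 1 (11209), an inclusion that no other SMART pair showed. At 10 ng the arrays held 10083 and 12545 probes, with 93.7% of the first set in the second. An exact two-sided permutation test of a trend with the logarithm of input gave p = 0.75, where 4 amounts cannot go below 0.0833. On all 8 arrays 4010 probes had a value, and 563 had none on any. A further 5177 probes were measured at 1 ng alone.

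The spread between replicas was widest at 10 pg and narrowest at 1 ng. The coefficient of repeatability (CR), 2 SD of the log2 ratios over probes, was 0.635 at 10 pg for the average of both turned arrays, 0.331 at 100 pg, 0.143 at 1 ng and 0.270 at 10 ng. Single arrays had a CR of 0.751 and 0.681 at 10 pg, 0.522 and 0.397 at 100 pg, 0.238 and 0.253 at 1 ng, and 0.469 and 0.365 at 10 ng, so that both 10 pg arrays lay above all others and both 1 ng arrays below all others. On the 4010 probes measured on all 8 arrays the CR was 0.666 at 10 pg, 0.305 at 100 pg, 0.123 at 1 ng and 0.261 at 10 ng, in the same order. The trend with input had p = 0.25 by the exact permutation test, since 10 ng lay above 1 ng. A difference of over 2-fold was found for 43 probes at 10 pg (24 higher and 19 lower in replica 1), 0 at 100 pg, 0 at 1 ng and 1 at 10 ng, which is 0.591%, 0%, 0% and 0.0106% of those measured.

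**Figure D1:**
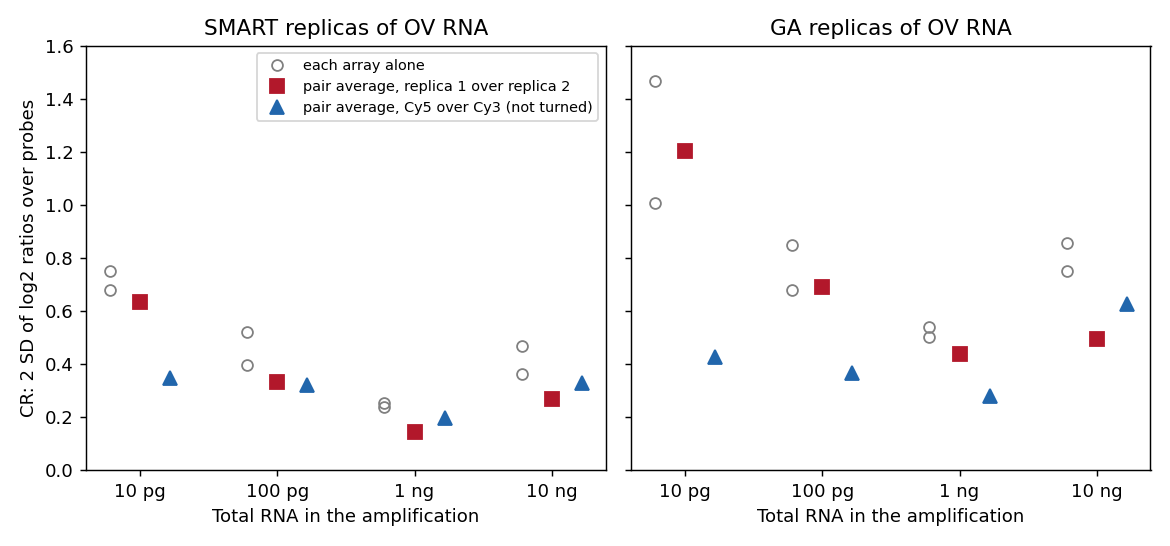
CR, 2 SD of log2 ratios over probes, against the total RNA in each amplification, for SMART (left) and GA (right) replicas of OV RNA. Open circles are single arrays, squares the average of both arrays as replica 1 over replica 2, and triangles the average as deposited. The triangle keeps what follows the dye, and both averages also hold spread that the 2 arrays do not share. In SMART the square lies above the triangle at 10 pg (0.635 against 0.348) and below it at 1 ng (0.143 against 0.197) and 10 ng (0.270 against 0.330).

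What made up this spread differed between the ends of the series. Averaged without turning, the arrays keep the part of a ratio that stays with the dye, called the dye part below. Spread that the 2 arrays do not share enters this average and the turned one alike. The CR of the average without turning was 0.348 at 10 pg, 0.322 at 100 pg, 0.197 at 1 ng and 0.330 at 10 ng. It was thus below the CR of the turned average at 10 pg, about equal to it at 100 pg, and above it at 1 ng and 10 ng. Neither CR alone gives the size of a dye effect or of a difference between replicas. Across probes, the turned ratios of both arrays had a correlation of r = 0.538 at 10 pg (7280 probes), 0.0304 at 100 pg (11000), -0.310 at 1 ng (16036) and -0.202 at 10 ng (9443). Probes share their 2 products, slides and print tips and are not independent, so r is a description. The 2 arrays had the same turned sign for 66.1% of probes at 10 pg, 50.2% at 100 pg, 40.0% at 1 ng and 42.8% at 10 ng. A correlation below 0 is also what a wrong dye label on 1 array of a pair would give, and within a pair this cannot be told apart from a dye effect.

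**Figure D2:**
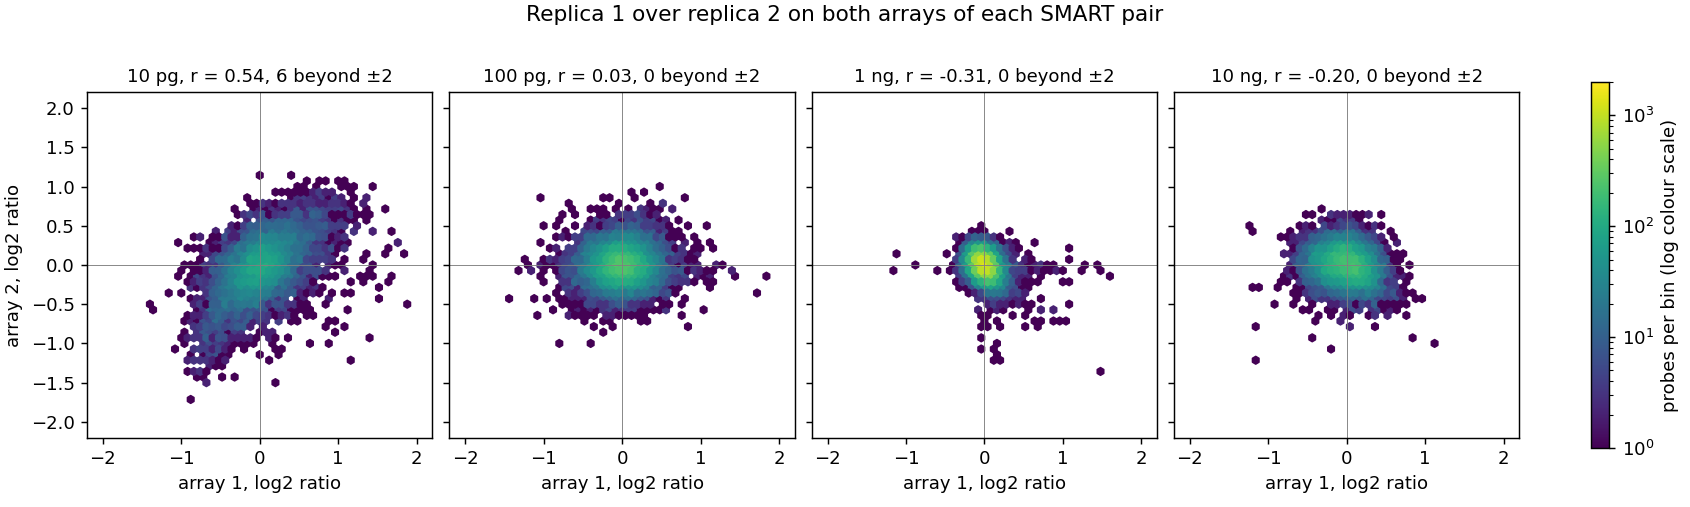
Log2 ratio of replica 1 over replica 2 on array 1 (horizontal) and array 2 (vertical) for each SMART pair, as probe counts per bin on a log colour scale. At 10 pg the cloud runs along the rising diagonal (r = 0.538), at 100 pg it is round (0.0304), and at 1 ng and 10 ng it is narrower and falls slightly (-0.310 and -0.202). The 6 probes beyond the axes are at 10 pg.

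The dye part of the 10 ng pair correlated with that of some arrays of other targets. Across probes the dye part at 10 ng had r = 0.679 with the dye part of the 4 SMART arrays that compare OV with 3T3 fibroblasts from 10 ng (7717 probes), where OV was in Cy5 on 2 arrays. It had r = 0.534 with the array of a GA target against itself (8815 probes) and 0.305 with the GA replicas from 10 ng (6657 probes), but 0.00265 with the unamplified cell line arrays (8108 probes). With the dye parts at 10 pg, 100 pg and 1 ng it had r = 0.120, -0.0409 and 0.0388. The dye part at 1 ng had r = 0.269 with that at 10 pg (6112 probes) and 0.220 with that at 100 pg (8482 probes), 0.226 with that of the GA replicas from 1 ng (3687 probes) and -0.0147 with that of the 10 ng cell line arrays. The dye part at 10 pg had r = 0.0501 with that at 100 pg (5631 probes), 0.217 with that of the SMART arrays of OV and 3T3 from 10 pg (882 probes) and 0.205 with that of the unamplified cell line arrays (5941 probes). All of these share probe sequence and dye chemistry, whose part was not tested. No probe was called for a ratio that stayed with the dye over all 4 amounts: limma called 0 of 4010 probes (0%) at a Benjamini-Hochberg adjusted p under 0.05, with 366 at an unadjusted p under 0.05.

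The part that goes with the replica was not shared between amounts. The turned averages of any 2 amounts had r between -0.0300 (10 pg and 100 pg) and 0.00414 (1 ng and 10 ng). Replica 1 is a name within each amount, and the labels do not link the replica 1 of 1 amount to that of another.

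At 10 pg the genes with large differences on both arrays had various roles. Psmf1, which codes for a proteasome inhibitor, had log2 ratios of 1.44 and 0.99 on array 1 and array 2, an average of 1.22 ± 0.158 (SE, adjusted p = 0.0217 from limma). Ndufs6, a subunit of respiratory complex I, had -0.92 and -1.71, an average of -1.31 ± 0.194. The 4 highest and 4 lowest genes of each amount were taken among those with 1 sign on both of its arrays, so that agreement of sign in them is no result. At the other 3 amounts both genes averaged between -0.36 and 0.14. Clk1, a kinase of splicing factors, had -0.92 and -1.36. Tgfbi, a secreted matrix protein, had -0.81 and -1.42, and Ptgr1, a reductase of prostaglandins, -0.83 and -2.15. These 3 were called, with adjusted p = 0.0217 each, and the largest size among them on the arrays of the other amounts was 0.44, for Clk1.

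Several of the highest averages at 10 pg rested mostly on 1 array, but that of Psmf1 (1.44 and 0.99) did not. Hsd17b10, a mitochondrial dehydrogenase, had 2.73 on array 1 and 0.26 on array 2, Mmadhc, which takes part in vitamin B12 trafficking, 2.20 and 0.58, and Gde1, a phosphodiesterase of glycerophospholipids, 2.35 and 0.17. Their SE was 0.449, 0.312 and 0.401, and none had an LOD above 0, although Mmadhc had adjusted p = 0.0348 from limma. Tcp1, a chaperonin subunit, had the highest average of all probes at 1.51 but 3.22 on array 1 and -0.20 on array 2. A difference of over 2-fold on each array separately was found for 3 of the 43 probes at 10 pg. These were, chosen after their values were seen, Rmdn1, a gene for a microtubule-associated protein (1.08 and 1.01), Pcnx4, of the pecanex family (1.10 and 1.04), and Bnip2, which codes for a partner of Bcl2 (-1.05 and -1.09).

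**Figure D3:**
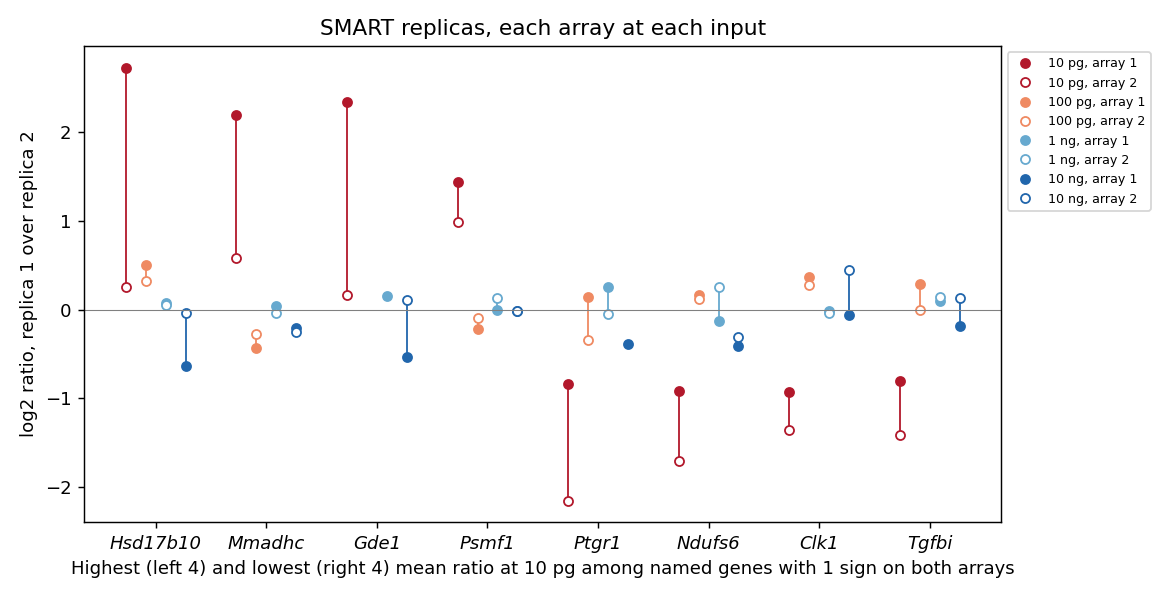
Log2 ratio of replica 1 over replica 2 for the 4 genes with the highest and the 4 with the lowest average at 10 pg among genes chosen to have 1 sign on both arrays there, on each array (filled circle array 1, open circle array 2) at each input amount, low to high from left to right within a gene. At 10 pg both values of Psmf1 (1.44 and 0.99) are large, whereas Hsd17b10 (2.73 and 0.26) and Gde1 (2.35 and 0.17) are high on array 1 and near 0 on array 2.

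Calls between replicas were nearly all at 10 pg. Limma, with 0.01 as the expected share of changed probes and a log-odds score (LOD) over 0 as the threshold, called 208 of 7280 probes at 10 pg (2.86%), 95 higher and 113 lower in replica 1. This balance turned on the array used. In joint fits of 7 arrays, calls were mostly lower in replica 1 without array 1 and mostly higher without array 2. Such a fit has 1 array at 10 pg, which keeps the dye part. Its error comes from the other amounts alone, so its counts are left out here. The fit per amount called 1 of 11000 probes at 100 pg (0.00909%), 0 of 16036 at 1 ng (0%), with 210 at an unadjusted p under 0.05, and 4 of 9443 at 10 ng (0.0424%). At an adjusted p under 0.05 the counts were 582, 0, 0 and 6 in the order of rising input. In 1 fit of all 8 arrays, over 4010 probes, the counts by LOD were 284, 4, 0 and 0. Poglut3, the call at 100 pg, and Bhlha15 and Neu3, called at 10 ng, lack values on some arrays and could not enter it. The counts per amount are not on 1 scale, since the prior degrees of freedom were 7.37 at 10 pg, 9.41 at 100 pg, 12.2 at 1 ng and infinite at 10 ng, where every probe received the same error. Of the 208 probes, 182 were measured at 100 pg, 173 at 1 ng and 166 at 10 ng. None of them differed by over 2-fold at those amounts, and their median absolute log2 ratio was 0.125 at 100 pg, against 0.0989 for all probes, 0.050 at 1 ng, against 0.0431, and 0.0999 at 10 ng, against 0.0868. In direction, 80 of 182, 87 of 173 and 79 of 166 were on the side they had at 10 pg. Of the probes called at 10 pg 78.8% had a value on all 6 arrays of unamplified cDNA, beside 70.8% of the probes tested.

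At 100 pg the largest differences were smaller. The call was Poglut3, an O-glucosyltransferase, lower in replica 1 at -0.80 and -0.96 (average -0.88 ± 0.137, SE), whose adjusted p was 0.504. Pdcd10, a component of a complex that keeps endothelial junctions, had 0.79 and 0.88 and Med6, a subunit of Mediator, 0.65 and 0.71, without a call. In these 3 genes both arrays lay close together. Clic1, a chloride channel protein, had 1.08 and 0.29, and Ubac1, a partner of a ubiquitin ligase, 0.46 and 0.98. Lower in replica 1 without a call were Mcts1, a translation re-initiation factor (-1.12 and -0.63), the zinc finger gene Zfp101 (-1.14 and -0.46) and the phosphatase gene Ppm1a (-1.43 and -0.41). Of 100 probes with an average of over 0.5 in size, 23 had over 0.5 in the same direction on both arrays, beside 476 of 849 at 10 pg.

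At 1 ng every one of the largest averages came from 1 array. Afg3l1, a mitochondrial protease gene, had 1.28 on array 1 and 0.03 on array 2, Fam104a 1.07 and 0.08, and Ciao3, of the iron-sulfur cluster assembly, 0.72 and 0.02. Arhgap21, a GTPase activator, had 0.53 and 0.14. At the low end the protease gene Tmprss2 had -1.13 and -0.05, Stim1, the calcium sensor of the endoplasmic reticulum, -0.87 and -0.03, Tmco5 -0.05 and -0.77, and Elmo2, an adaptor in cell migration, -0.02 and -0.74. The adjusted p from limma rounded to 1.00 for each of these genes. Of 11 probes with an average of over 0.5 in size, 0 exceeded 0.5 on both arrays. These 8 genes had few values elsewhere, with 2 to 5 arrays of 8.

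At 10 ng the calls were few and all lower in replica 1. Bhlha15, a transcription factor of secretory cells, had -1.17 and -1.18, and was near 0 at 1 ng (-0.06 and 0.02) and above 0 at 100 pg (0.16 and 0.25). Gata4, a transcription factor of gonadal and mesothelial cells, had -0.43 and -0.94 at 10 ng, and 0.00 and 0.02 at 1 ng. The other genes with low averages were Neu3, a sialidase (-0.92 and -0.53), and Plpbp, a protein that binds vitamin B6 (-1.14 and -0.29). Of these, Bhlha15 and Neu3 were called. Gata4 and Plpbp had an LOD below 0 but adjusted p = 0.0485 and 0.0277 from limma, so that their call turns on the threshold. The other calls were Gm11346 and AI481772, named here after their values were seen, with averages of -0.76 and -0.96. Those with high averages were Mllt11 (0.41 and 0.66), Ezr, which links actin to the membrane (0.58 and 0.42), Dtna, of the dystrophin complex (0.31 and 0.63), and Gstp1, a glutathione transferase (0.67 and 0.26), none of which was called. Mllt11 had -0.60 and -0.14 at 100 pg, the opposite direction, while Gstp1 had 0.29 and 0.35 there.

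Gene groups were measured in an order that changed with the amount. Over all 15063 genes 38.5% were measured at 10 pg, 56.6% at 100 pg, 75.6% at 1 ng and 51.1% at 10 ng. Ribosomal protein genes, among the most abundant transcripts of any cell, were measured for 53 of 63 at 10 pg, 60 at 100 pg, 55 at 1 ng and 60 at 10 ng. Translation factors followed with 27, 32, 29 and 30 of 33. Both groups stood above the share of all genes at every amount. Olfactory and vomeronasal receptors, which sensory neurons express, were measured for 24 of 175 at 10 pg (13.7%), 45 at 100 pg (25.7%), 131 at 1 ng (74.9%) and 24 at 10 ng (13.7%). At 1 ng these receptors were therefore measured as often as all genes, and at the other amounts less often. Leukocyte genes had 6 of 25 at 10 pg, 9 at 100 pg, 18 at 1 ng and 6 at 10 ng, the same pattern.

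Genes of the proteasome, which degrades ubiquitin-tagged proteins, were measured least at 1 ng. Of 36 genes, 21 were measured at 10 pg, 32 at 100 pg, 19 at 1 ng and 32 at 10 ng. At 1 ng array 1 held 19 of them and array 2 held 34. Of the 32 that were measured at both 100 pg and 10 ng, 17 were measured at 1 ng, which is 53.1%, beside 81.3% of all genes chosen in the same way. Genes of the respiratory chain and ATP synthase had 42, 63, 53 and 59 of 70 from the lowest to the highest input.

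**Figure D4:**
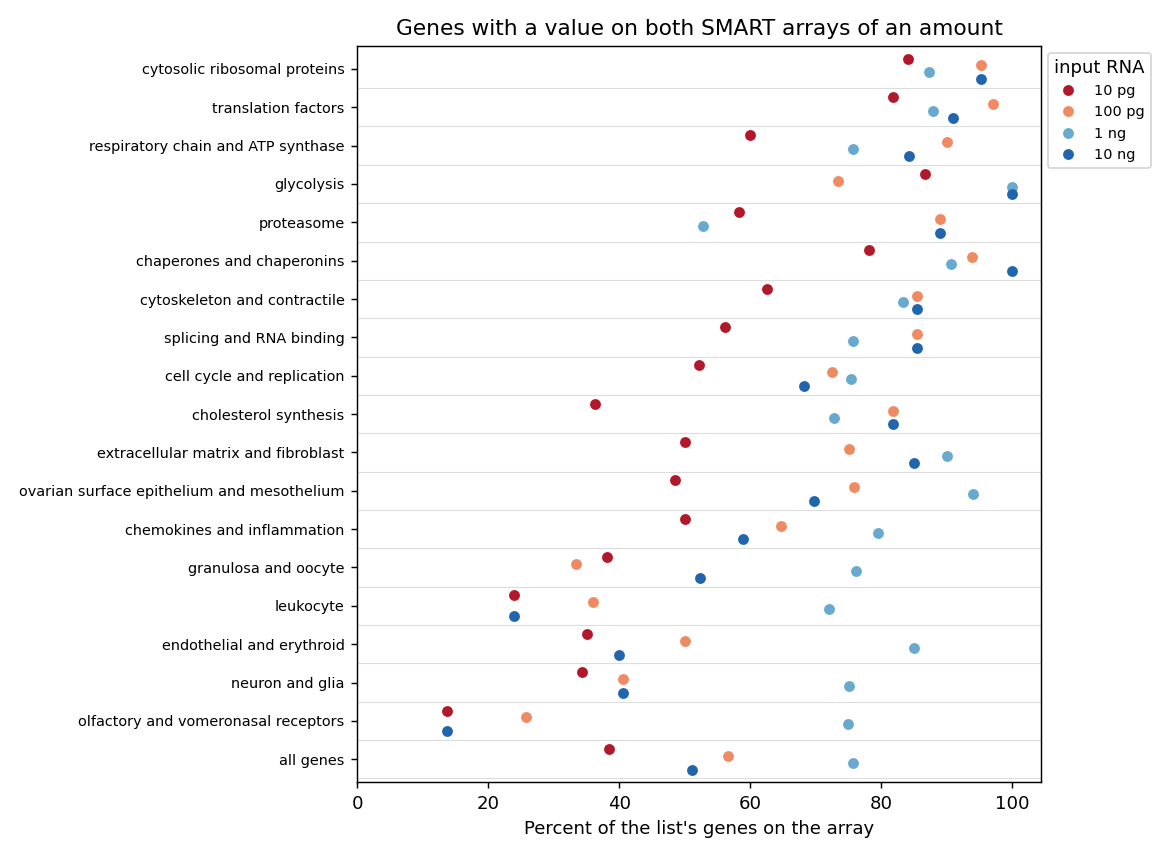
Percent of the genes of each list, and of all genes, with a value on both SMART arrays, by input amount (colour, 10 pg uppermost in each row). Lists of broadly expressed genes lie to the right of all genes at 10 pg, 100 pg and 10 ng, with cholesterol synthesis below at 10 pg, and olfactory and vomeronasal receptors lie far to the left at those amounts (13.7%, 25.7% and 13.7%) but at 74.9% at 1 ng.

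Unamplified cDNA of the same study, on 6 arrays of which 4 hold OV and 3T3 RNA together, was used to class the probes. Of 765 probes with no value on any of its 6 arrays, 27 were measured at 10 pg (3.53%), 33 at 100 pg (4.31%), 282 at 1 ng (36.9%) and 10 at 10 ng (1.31%). Of 10131 probes with a value on all 6, 50.9% were measured at 10 pg, 75.8% at 100 pg, 81.5% at 1 ng and 70.6% at 10 ng. The contrast between both classes was smallest at 1 ng. At 10 pg the CR of averaged replicas was 0.664 for the 5155 probes of the class with all 6 values, 0.579 for 1598 probes with 4 or 5, 0.494 for 500 with 1 to 3 and 0.427 for the 27 with none. At the other amounts no such order was seen.

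Ribosomal protein genes differed least between 10 pg replicas among the lists of broadly expressed genes. The 53 measured had a median absolute log2 ratio of 0.0873, beside 0.180 for all 5796 genes measured at 10 pg, and the largest was 0.53 for Rpl14, of the large subunit. Translation factors had 0.222 (27 genes), chaperones and chaperonins 0.209 (25 genes), respiratory chain and ATP synthase 0.201 (42 genes) and the proteasome 0.196 (21 genes). Cholesterol synthesis had the widest, 0.282, over the 8 of its 22 genes that were measured. At 100 pg the ribosomal protein genes had 0.0817, beside 0.0989 for all genes, at 1 ng 0.0346, beside 0.0425, and at 10 ng 0.0709, beside 0.0861. On the 43 ribosomal protein genes measured on all 8 arrays the SD was 0.164 at 10 pg, 0.128 at 100 pg, 0.0433 at 1 ng and 0.112 at 10 ng, and on the 3494 such genes of all kinds it was 0.336, 0.152, 0.0605 and 0.129. Olfactory and vomeronasal receptors also had a small median at 10 pg, 0.0944 over 24 genes.

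**Figure D5:**
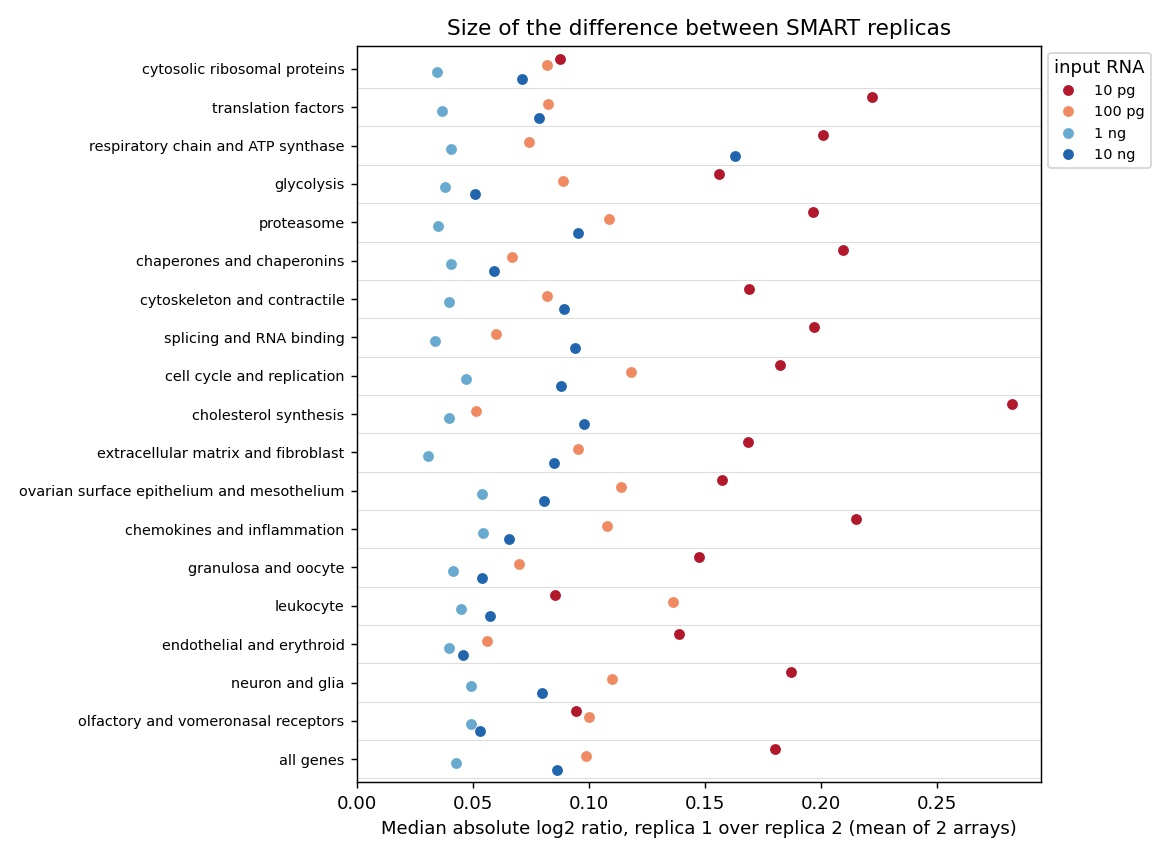
Median absolute log2 ratio of replica 1 over replica 2 (mean of both arrays) over the measured genes of each list, and of all genes, by input amount (colour, 10 pg uppermost in each row). For all genes it was 0.180 at 10 pg and 0.0425 at 1 ng, while ribosomal protein genes had 0.0873 at 10 pg and leukocyte (0.0854) and olfactory and vomeronasal receptor genes (0.0944) also lay low there.

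Calls at 10 pg were spread thinly over the lists. Of all 5796 genes measured, 191 had a called probe (3.3%). The proteasome had 3 of 21, in both directions: Psmf1, Psmd10, an assembly chaperone of the regulatory particle (1.43 and 0.66), and Psmd8, a subunit of that particle (-0.63 and -1.14). The cytoskeleton had 2 of 30, Gsn, the actin-severing gelsolin (0.88 and 0.69), and Arpc5, of the Arp2/3 complex (-0.77 and -0.82). Single calls were Eif3b, of an initiation factor, in translation (1.03 and 0.83, of 27 genes), Ndufs6 in the respiratory chain (of 42), Aldoc, an aldolase, in glycolysis (-0.90 and -0.71, of 13) and Cdt1, which licenses replication origins, in the cell cycle (-0.66 and -0.88, of 36). Ribosomal protein genes had 0 of 53, chaperones 0 of 25, splicing and RNA binding genes 0 of 23 and extracellular matrix and fibroblast genes 0 of 30. With so few genes a list the counts are a description beside 3.3%.

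Single members of the other lists with large averages and no call had 1 high array or a wide gap at 10 pg. Lox, the collagen cross-linking oxidase, had -1.37 and -0.56, Stmn1, which destabilizes microtubules, 1.42 and 0.46, and Msmo1, of sterol synthesis, -0.38 and -1.15. Sf3a3, a splicing factor subunit, had -0.37 and -0.94 at 10 pg and -0.42 and -0.52 at 100 pg, the same direction at both amounts without a call. The steadiest members included Hspa8, the constitutive heat shock protein (0.04 and -0.09 at 10 pg), Ptbp1, a splicing repressor (-0.07 and -0.04), Cox4i1, of cytochrome oxidase (-0.03 and 0.09), and Rpl19 (0.02 and -0.06). Over all 8 arrays the largest size among these 4 was 0.19.

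Among OV markers, Aldh1a2 was called at 10 pg, with 1.61 and 0.73 (average 1.17 ± 0.205, SE, adjusted p = 0.0217 from limma). It was the only call among the 16 genes of the ovarian surface epithelium and mesothelium list measured there, of 33 on the array. Over all genes 191 of 5796 were called at 10 pg (3.3%), so this count is too small to compare. At the other amounts it averaged -0.18, -0.05 and 0.07 from 100 pg to 10 ng. Bnc1 had 0.38 and 0.68 and Wt1 0.43 and 0.50 at 10 pg, with no call. Krt7 had -0.21 and -0.24, Krt8 0.27 and 0.11, Krt19 -0.27 and 0.07, and Msln 0.20 and -0.02. The markers of 1 cell type thus lay on both sides of 0 in the same pair of reactions. The junction genes Cdh1, Cldn1 and Ocln and the keratin Krt18 were measured at 1 ng alone.

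Genes of cell types that OV should lack had averages at 10 pg both below and above the median size over all genes, 0.180. The first 10 in alphabetical order of those measured were Amh (0.28 and 0.33), Camk2a of neurons (0.18 and 0.14), the leukocyte genes Cd14 (0.41 and 0.31) and Cd4 (0.08 and 0.40), the endothelial genes Cdh5 (0.26 and -0.16), Cldn5 (0.21 and 0.02), Flt1 (-0.21 and 0.50) and Flt4 (-0.27 and 0.25), the oocyte gene Dppa3 (-0.19 and 0.27) and Foxl2 of granulosa cells (-0.09 and 0.24). The averages of Cd14 (0.36), Amh (0.30) and Cd4 (0.24) were larger in size than that median. Of these 10 genes 0 were called, beside 3.3% of all genes, a count too small to compare, and 5 had opposite signs on the 2 arrays. Over the lists of such cells the largest averages were -0.45 for Inhba, of granulosa cells, 0.40 for the neurofilament gene Nefm and 0.38 for the embryonic globin gene Hba-x.

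At 10 ng, genes of the respiratory chain and ATP synthase lay below 0 together. The average was below 0 for 48 of 59 genes (81.4%), beside 49.3% of all 7696 genes, with a median of -0.14 beside 0.00. On both arrays 28 of the 59 were lower in replica 1 and 0 were higher, beside 21.4% and 21.9% of all genes. The largest was Sdhb, of succinate dehydrogenase, at an average of -0.41. None was called, beside 4 of all 7696 genes (0.052%). At 10 pg, 100 pg and 1 ng the medians were -0.03, 0.01 and -0.01. Averages at 10 ng were also mostly below 0 in chemokines and inflammation (15 of 20), the proteasome (23 of 32) and ribosomal protein genes (38 of 60). Extracellular matrix and fibroblast genes lay on the other side at 10 ng, with a median of 0.07 and 13 of 51 averages below 0. Glycolysis genes did so too, with 4 of 15 below 0. Whether these shifts belong to the reactions or to the slides was not tested.

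GA, which adds a poly(A) tail to the cDNA and amplifies it by PCR, was run on the same RNA at the same amounts. The CR of averaged replicas was 0.635 for SMART and 1.20 for GA at 10 pg, 0.331 and 0.691 at 100 pg, 0.143 and 0.440 at 1 ng, and 0.270 and 0.496 at 10 ng. SMART was lower at 4 of 4 amounts, with a mean difference of -0.363 (p = 0.125, exact two-sided sign-flip permutation test over 4 amounts, the smallest it can give, and adjusted p = 0.35 over 7 tests). A difference of over 2-fold was found for 43 SMART probes at 10 pg (0.591%) and 1582 GA probes (9.98%), for 0 and 189 (2.04%) at 100 pg, 0 and 19 (0.405%) at 1 ng, and 1 and 60 (0.618%) at 10 ng. The turned arrays of a pair had r = 0.538 for SMART and 0.820 for GA at 10 pg, 0.0304 and 0.582 at 100 pg, -0.310 and 0.436 at 1 ng, and -0.202 and -0.234 at 10 ng. Both methods had their lowest CR at 1 ng. Probes measured numbered 7280 for SMART and 15845 for GA at 10 pg, 11000 and 9258 at 100 pg, 16036 and 4686 at 1 ng, and 9443 and 9708 at 10 ng, so that neither method measured more throughout (p = 0.75 by the same exact permutation test).

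At 10 pg the differences between cell lines by SMART were of a size near those between replicas, and the difference was not tested. Over 821 genes measured in both, the CR of OV over 3T3 by SMART from 10 pg, the average of 4 arrays, was 0.613, and that of the replicas, the average of 2, was 0.660. A difference of over 2-fold was found for 14 genes between cell lines and 10 between replicas. The cell line ratio was the larger in size for 372 genes (45.3%). From 10 ng, over 6460 genes, the CR was 0.508 between cell lines and 0.271 between replicas, and the cell line ratio was the larger for 61.1%. Genes with large cell line ratios at 10 pg could still differ little between replicas, chosen here after their values were seen: decorin (Dcn), a matrix proteoglycan, stood at 1.47 ± 0.08 (log2, SD over 4 arrays, 2 in each dye orientation, which may share products and are not 4 independent samples) between cell lines and at -0.04 between replicas, and the chemokine gene Ccl2 1.08 ± 0.05 and -0.17.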

How the data were processed

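Arrays of 65-mer mouse oligonucleotides were hybridized with both replicas labeled indirectly in Cy3 and Cy5. The deposited values are log2 ratios, which the authors made from background-subtracted spot signals with print-tip lowess normalization in limma, and no further scaling was applied. Of 21997 probes 231 controls were left out. The platform annotation gives 1 symbol for 16632 of the rest, several for 139 and none for 4995. For values by gene, probes that share a symbol were averaged (15063 genes). The annotation was matched to RefSeq by gene identifier for 15952 probes. The number of columns without a sample was 0.

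Limma 3.58.1 in R 4.3.3 (lmFit, eBayes, proportion 0.01) was fitted per amount to 2 turned arrays, leaving 1 residual degree of freedom. A dye effect was tested over 4 amounts. Exact permutation tests took the amount as the unit. The limma fits were tested on simulated arrays with independent normal noise. Of added differences of 0.5 (log2), the fit per amount called 5% at 10 pg, 37% at 100 pg, 98% at 1 ng and 36% at 10 ng. Of those of 1, it called 69% at 10 pg and 100% at each other amount. Same-numbered SMART and GA arrays share no source by the labels, and array 1 had the higher CR in 3 of 4 SMART pairs, with the same direction as GA in 2 of 4.

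Genes were named by a rule: the 4 highest and 4 lowest averages per amount with 1 sign on both arrays and clone names left out, the members of each of 18 lists with the largest and the smallest ratios among genes on all 8 arrays, OV markers and genes of other cell types. Not all genes the rule gives are printed. Members and lists were chosen with earlier results of these data known. Alternatives covered threshold, fit, robust variance, genes, dye term, spread measure, common probes and leaving out arrays. The correlation of turned arrays as a measure and leaving out the 1 ng arrays were added after the data were seen. Figures were drawn with matplotlib in Python.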

Additional observations from a re-analysis of the deposited data

How the results depend on the processing

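At 10 pg the calls were 582 at an adjusted p under 0.05 in place of 208, and from 160 to 187 when 1 array was left out, mostly lower in replica 1 without array 1 (129 of 160) and mostly higher without array 2 (149 of 187). At 100 pg they were 0 at an adjusted p under 0.05 and 0 by gene, 4 in 1 fit of all 8 arrays, 5 with a dye term, and from 0 to 34 when 1 array was left out, so that array 1 without array 2 gave 34. At 10 ng they were 0 in the fit of all 8 arrays, 0 with a dye term, and from 0 to 1 when 1 array was left out, that 1 being higher in replica 1. These joint fits hold only probes measured on every array they use (4010 on all 8). Bhlha15 and Neu3, called at 10 ng, and Poglut3, called at 100 pg, lack a value on at least 1 array of the 10 pg pair. They could enter neither the fits of all 8 arrays nor those without 1 array of their own amount. For these genes the loss of the call was set by which probes were kept, so these fits do not test it. By a scaled median absolute deviation the CR was 0.513 at 10 pg and 0.128 at 1 ng. On the probes of all 8 arrays it was 0.123 at 1 ng. Averaged without turning it was 0.348 at 10 pg and 0.197 at 1 ng. With 1 array left out the CR was from 0.681 to 0.751 at 10 pg, from 0.397 to 0.522 at 100 pg, from 0.238 to 0.253 at 1 ng and from 0.365 to 0.469 at 10 ng. At least 1 array gave 14259 probes at 10 pg. SMART measured on average 1065.5 more probes than GA over 4 amounts and -2363 without the 1 ng arrays, which turns the direction.

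The SMART and GA numbers do not pair the samples. With them as a block the CR of SMART minus that of GA arrays was -0.372 on average (exact p = 0.00781 over 8 differences, the smallest possible), but both arrays of an amount hold the same products. The block changed no other call: exact permutation tests gave p = 0.0764 for the trend of CR and 0.5 for that of probes measured. For the ratio that stays with the dye, calls were 1 at an LOD above 0 and 6 with array weights. Over all results and alternatives, 77 values kept their call or stayed close (a count within 1.5 times, a CR within the spread of arrays), 12 moved further, 7 were weaker, 7 were stronger and 1 turned direction. The weaker values include joint fits at 10 ng and 100 pg that Bhlha15, Neu3 and Poglut3 could not enter. No signal over background was available to set a limit.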
